A study of Caenorhabditis elegans with 6 samples.

Results

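The genes described here are 8 classical targets of DAF-16 in *C. elegans*: *dod-3*, the metallothionein genes *mtl-1* and *mtl-2*, *sod-3*, *icl-1*, and the small heat shock protein genes *hsp-12.6*, *hsp-12.3* and *sip-1*. They were chosen from genes that DAF-16 is known to raise, with their log2 differences on these same arrays in view, so their differences between the groups are given as a description and not as a test. Every probe whose sequence name is paired with one of these symbols was taken, which gave 26 of the 43603 probes and 8 of the 24746 genes on the arrays. The 24746 include identifiers that matched no known gene. All 8 genes were measured on all 6 arrays, through 25 of their 26 probes. The remaining probe, of *icl-1*, was well above background on all 3 pRJ-Fr.5 arrays and on 2 of the 3 control arrays.

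Gene expression was measured on 1-colour Agilent arrays in whole worms with or without pRJ-Fr.5, the methanol-eluted column fraction of protease-treated royal jelly. The pRJ-Fr.5 group (3 arrays) was treated for 24 h from the L4 larval stage, and the control group (3 arrays) was left untreated over the same time. All worms were wild-type Bristol N2 hermaphrodites fed UV-irradiated *E. coli* OP50, and each array held RNA pooled from many worms. The labels give the dose as 25 mg/ml, whereas the methods write its unit as µg/ml. The labels do not say whether the 3 samples of a group came from separate cultures, so the spread between arrays may be partly technical.

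DAF-16 is the FOXO transcription factor at the end of the insulin/IGF-1 signaling (IIS) pathway. When the insulin-like receptor DAF-2 is active, the kinases AGE-1, PDK-1, AKT-1 and AKT-2 keep DAF-16 phosphorylated and in the cytoplasm, and when signaling falls DAF-16 enters the nucleus. There it raises genes for detoxification, antioxidant defence, protein folding and fat use, and lowers another set of genes. The 8 genes are widely used as readouts of that activity.

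The level of a gene is given as the log2 of its signal minus that of the 75th percentile of its array, so that a level of 0 lies at that percentile. Probes differ in how strongly they bind, so levels were compared between arrays and not between genes. In extracts of whole worms, fewer cells of a type and less RNA per cell cannot be told apart.

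The 8 genes fell into a graded series by the size of their difference. *dod-3* and *mtl-1* were more than 1 log2 unit higher with pRJ-Fr.5 on average, *hsp-12.6* and *icl-1* were higher by 0.66 and 0.49, *hsp-12.3* was higher by 0.14, and *mtl-2*, *sip-1* and *sod-3* differed by at most 0.02. The pRJ-Fr.5 and control arrays did not overlap for *dod-3*, *icl-1* and *hsp-12.6*, 3 of the 8 genes, all higher with pRJ-Fr.5, beside 48.8% of all 16057 genes tested (23.5% higher and 25.3% lower). The same 3 genes lay past the adjusted threshold of the limma fit across all genes, beside 29% of all genes (9.88% higher and 19.1% lower). None of the 8 lay past it with the methods' t-test or with no filter on dim probes. All 8 means were higher with pRJ-Fr.5, beside 8664 of all 16057 genes tested. For *mtl-2*, *sip-1* and *sod-3* the sign of the difference depended on which array was left out. The median log2 fold change of the 8 genes was 0.31, beside 0.03 over all genes tested. The list was chosen with this contrast in view, so nothing is read from these counts or from this median.

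**Figure D1:**
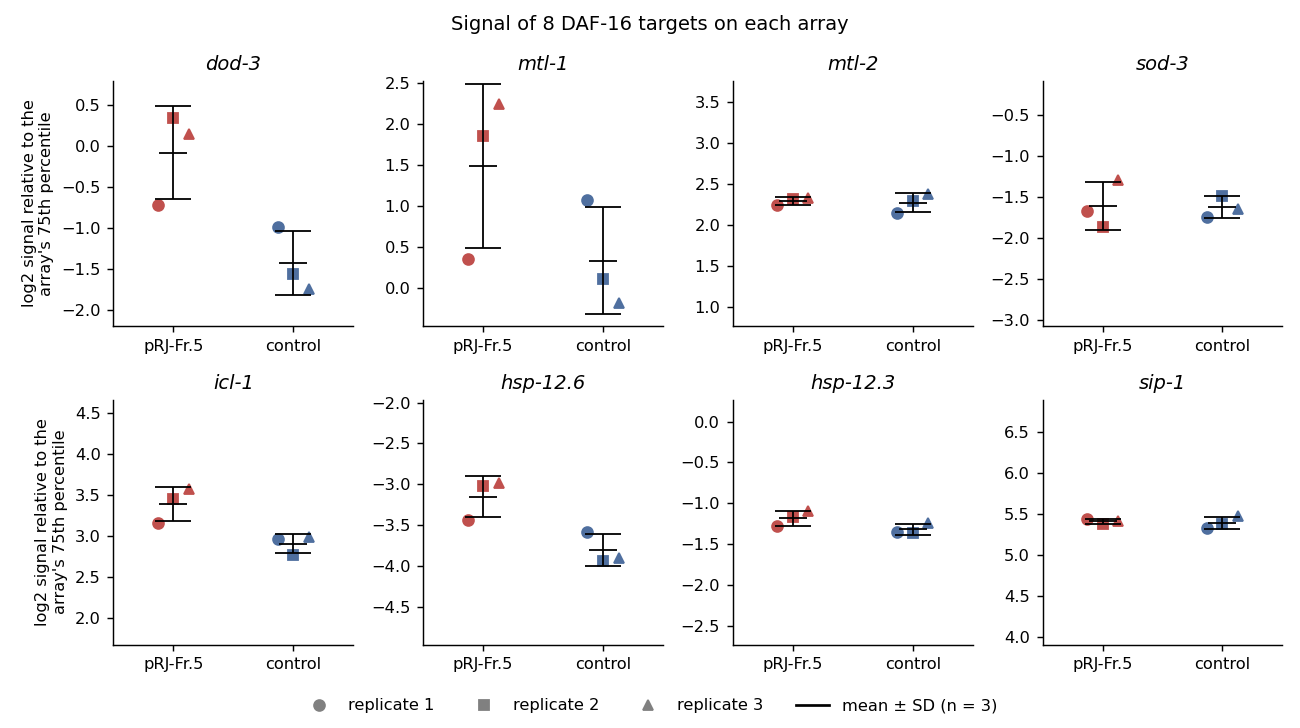
Level of each of the 8 genes (log2 signal relative to the 75th percentile of the array, vertical axis, the same span in every panel) on the 3 pRJ-Fr.5 arrays (red, left) and the 3 control arrays (blue, right), with the mean and SD of each group and a symbol for each replicate number. The groups stand apart for *dod-3*, *icl-1* and *hsp-12.6*, cross for *mtl-1*, and lie together for *mtl-2*, *sod-3* and *sip-1*.

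*dod-3* was named for lying downstream of DAF-16 and encodes a small protein of unknown function. Its level was -0.72, 0.34 and 0.15 on pRJ-Fr.5 arrays 1, 2 and 3, against -0.99, -1.56 and -1.74 on control arrays 1, 2 and 3. The groups did not overlap, but pRJ-Fr.5 replicate 1 and control replicate 1 were only 0.27 apart, while the other arrays of the groups lay far from each other. The means were -0.08 ± 0.57 in pRJ-Fr.5 worms and -1.43 ± 0.39 in control worms (SD, n = 3 each), a log2 fold change of 1.36 (SE 0.31) or 2.56-fold. The spread within groups was wide for this gene, since its pooled SD of 0.49 was larger than that of 97.5% of all genes tested. Leaving out pRJ-Fr.5 replicate 2 brought the log2 fold change of *dod-3* down to 1.15, and leaving out pRJ-Fr.5 replicate 1 brought it up to 1.68.

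*mtl-1* encodes a metallothionein, a small cysteine-rich protein that binds metals such as zinc and cadmium. Its level was 0.35, 1.86 and 2.25 on the pRJ-Fr.5 arrays, against 1.07, 0.11 and -0.19 on the control arrays. The groups overlapped, because pRJ-Fr.5 replicate 1 lay below control replicate 1. Compared with the control mean, pRJ-Fr.5 replicate 1 was higher by 0.02, whereas replicates 2 and 3 were higher by 1.53 and 1.92. The group means were 1.49 ± 1.00 in pRJ-Fr.5 worms and 0.33 ± 0.66 in control worms (SD, n = 3 each), a log2 fold change of 1.16 (SE 0.54) or 2.23-fold. The pooled SD of 0.85 was larger than that of 99.3% of all genes tested and 99.8% of the 500 genes nearest to it in level. A single array therefore set much of the value: the log2 fold change was 1.72 when pRJ-Fr.5 replicate 1 was left out and 0.78 when it was pRJ-Fr.5 replicate 3. Without pRJ-Fr.5 replicate 1, or without control replicate 1, the groups of *mtl-1* did not overlap.

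*mtl-2* encodes the other classical metallothionein of the worm, which is induced by metals in the intestine. Its level was 2.24, 2.32 and 2.33 on the pRJ-Fr.5 arrays, against 2.14, 2.29 and 2.38 on the control arrays. The pRJ-Fr.5 arrays lay inside the range of the control arrays. The means were 2.29 ± 0.05 in pRJ-Fr.5 worms and 2.27 ± 0.12 in control worms (SD, n = 3 each), a log2 fold change of 0.02 (SE 0.08). The arrays that were far apart for *mtl-1* were thus close together for *mtl-2*, whose pooled SD of 0.0899 was larger than that of 41.6% of all genes tested.

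*sod-3* encodes a mitochondrial manganese superoxide dismutase, and its promoter is a common reporter of DAF-16 activity. Its level was -1.67, -1.86 and -1.29 on the pRJ-Fr.5 arrays, against -1.74, -1.48 and -1.64 on the control arrays. The control arrays lay inside the range of the pRJ-Fr.5 arrays, of which replicate 3 was the highest and replicate 2 the lowest of all 6. The means were -1.61 ± 0.29 in pRJ-Fr.5 worms and -1.62 ± 0.13 in control worms (SD, n = 3 each), a log2 fold change of 0.01 (SE 0.15). The sign of that difference depended on the array left out, being -0.15 when pRJ-Fr.5 replicate 3 was dropped and 0.14 when pRJ-Fr.5 replicate 2 was. The pooled SD of 0.23 was larger than that of 87.5% of all genes tested. The smallest difference that 3 arrays a group could detect at this spread was not computed.

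*icl-1* encodes the bifunctional enzyme of the glyoxylate cycle, with isocitrate lyase and malate synthase activity, which lets the worm make carbohydrate from fat. Its level over the 6 kept probes was 3.16, 3.45 and 3.57 on the pRJ-Fr.5 arrays, against 2.96, 2.77 and 2.98 on the control arrays. The groups did not overlap, with 0.18 between pRJ-Fr.5 replicate 1 and control replicate 3. The means were 3.39 ± 0.21 in pRJ-Fr.5 worms and 2.90 ± 0.12 in control worms (SD, n = 3 each), a log2 fold change of 0.49 (SE 0.12) or 1.40-fold. All 6 kept probes had pRJ-Fr.5 arrays above all control arrays, but their log2 fold changes fell into separate ranges, 0.66 to 0.73 for 3 probes and 0.18 to 0.35 for the other 3. The probe that was not kept was dim, with means of -5.96 ± 0.40 in pRJ-Fr.5 worms and -7.23 ± 0.21 in control worms (SD, n = 3 each), and its groups did not overlap. With the brightest probe alone the log2 fold change of *icl-1* was 0.35.

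*hsp-12.6* encodes a very short small heat shock protein of the HSP12 class. Its level over 6 probes was -3.44, -3.03 and -2.99 on the pRJ-Fr.5 arrays, against -3.59, -3.94 and -3.90 on the control arrays. The groups did not overlap, and the nearest arrays were again pRJ-Fr.5 replicate 1 and control replicate 1, which were 0.15 apart. The means were -3.15 ± 0.25 in pRJ-Fr.5 worms and -3.81 ± 0.19 in control worms (SD, n = 3 each), a log2 fold change of 0.66 (SE 0.15) or 1.58-fold. The probes of this gene behaved alike, with log2 fold changes from 0.62 to 0.72, and in all 6 of them pRJ-Fr.5 replicate 1 was the lowest pRJ-Fr.5 array and control replicate 1 the highest control array. The signal was dim, and with normexp background correction the log2 fold change was 0.45.

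*hsp-12.3* encodes another HSP12 protein. Its level over 6 probes was -1.28, -1.17 and -1.10 on the pRJ-Fr.5 arrays, against -1.35, -1.36 and -1.24 on the control arrays. Only pRJ-Fr.5 replicate 1 and control replicate 3 crossed, by 0.04. The means were -1.18 ± 0.09 in pRJ-Fr.5 worms and -1.32 ± 0.07 in control worms (SD, n = 3 each), a log2 fold change of 0.14 (SE 0.07). The 6 probes had log2 fold changes from 0.07 to 0.20, and the groups did not overlap in 1 of them. The replicates were close, with a pooled SD larger than that of 32.3% of all genes tested.

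*sip-1* encodes a small heat shock protein known from oocytes and embryos. Its level over 3 probes was 5.44, 5.38 and 5.41 on the pRJ-Fr.5 arrays, against 5.33, 5.37 and 5.47 on the control arrays. The pRJ-Fr.5 arrays lay inside the range of the control arrays. The means were 5.41 ± 0.03 in pRJ-Fr.5 worms and 5.39 ± 0.07 in control worms (SD, n = 3 each), a log2 fold change of 0.02 (SE 0.06). The replicates were closest for this gene among the 8, with a pooled SD larger than that of 11.5% of all genes tested. Its 3 probes had log2 fold changes of 0.14, -0.02 and -0.06, and none of them separated the groups.

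**Figure D2:**
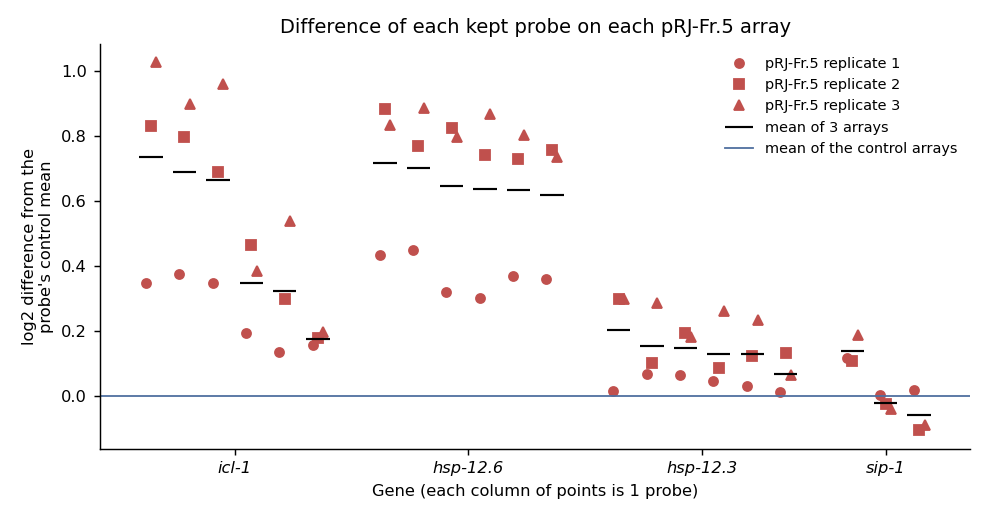
Difference of each kept probe from its own control mean (log2, vertical axis) on each pRJ-Fr.5 array, for the 4 genes with more than 1 kept probe, with each column of points 1 probe and the bar its mean over the 3 pRJ-Fr.5 arrays. The 6 *hsp-12.6* probes lie between 0.62 and 0.72, the 6 *icl-1* probes split into an upper and a lower set, and pRJ-Fr.5 replicate 1 (circles) is the lowest point of every *icl-1*, *hsp-12.6* and *hsp-12.3* probe.

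The agreement of the replicates differed from gene to gene, and so did the array that set it. pRJ-Fr.5 replicate 1 was the lowest pRJ-Fr.5 array for 6 of the 8 genes, all but *sod-3* and *sip-1*, beside 33.1% of all genes tested and 64.4% of the genes past the threshold that were higher with pRJ-Fr.5. It was the pRJ-Fr.5 array nearest to the control mean for 7 of the 8 genes, all but *sip-1*. That held for 49.1% of all genes tested and 64.4% of the genes past the threshold that were higher with pRJ-Fr.5. The median difference of the 8 genes from the control mean was 0.04 on pRJ-Fr.5 replicate 1, 0.35 on replicate 2 and 0.50 on replicate 3, where all genes tested had medians of 0.01, 0.02 and 0.02. Control replicate 1 was the highest control array for *dod-3*, *mtl-1* and *hsp-12.6*, beside 28.2% of all genes tested. In these 3 genes the lowest pRJ-Fr.5 array and the highest control array thus had the same replicate number, and both were on the first slide. The same 2 arrays held these places in 13.4% of all genes tested and 23.3% of the genes past the threshold that were higher with pRJ-Fr.5.

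**Figure D3:**
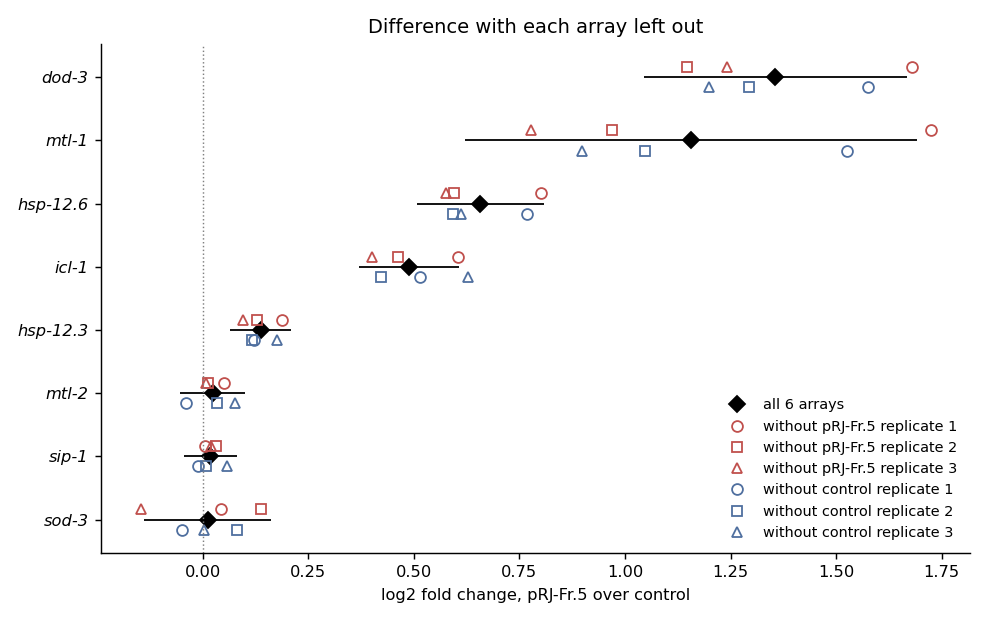
Log2 fold change of each gene, pRJ-Fr.5 over control (horizontal axis), with all 6 arrays (black diamond, with the SE as a line) and with each array left out in turn (red symbols for pRJ-Fr.5 arrays, blue for control arrays). For *mtl-1* the values lie between 0.78 and 1.72 and for *dod-3* between 1.15 and 1.68, whereas those of *mtl-2*, *sip-1* and *sod-3* lie on both sides of 0. The highest *icl-1* value takes in a dim probe that was not kept with all 6 arrays.

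The arrays came from 2 slides, which were also the 2 scans. The first held replicates 1 and 2 of both groups and the second held replicate 3 of both. The difference between pRJ-Fr.5 and control arrays was larger on the second slide for 6 of the 8 genes, beside 33.8% of all genes tested. Among the genes past the threshold that were higher with pRJ-Fr.5, the share was 54.7%. For *mtl-1* it was 0.52 on the first slide and 2.44 on the second, and for *dod-3* it was 1.09 and 1.90. For *hsp-12.6* it was 0.53 and 0.91, for *icl-1* 0.44 and 0.59, and for *hsp-12.3* 0.13 and 0.14, so these 5 genes were higher with pRJ-Fr.5 on both slides. *sod-3* had differences of -0.16 and 0.35, *mtl-2* of 0.06 and -0.05, and *sip-1* of 0.06 and -0.06. The second slide held a single array of each group, and the part of the slide in these values was not tested.

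**Figure D4:**
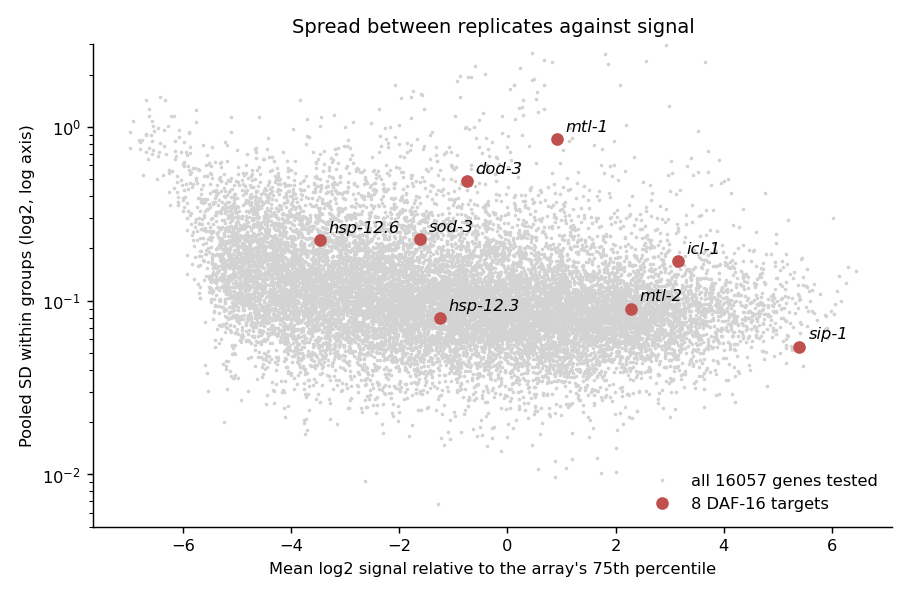
Pooled SD within groups (log2, vertical log axis) against the mean level over the 6 arrays (log2 signal relative to the 75th percentile of the array) for all 16057 genes tested (grey) and the 8 genes (red). *mtl-1* and *dod-3* lie above nearly all genes of like level, at 0.85 and 0.49, whereas *sip-1*, *hsp-12.3* and *mtl-2* lie within the bulk.

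The median pooled SD of all genes tested was 0.101. *mtl-1*, *dod-3*, *sod-3*, *hsp-12.6* and *icl-1* were all more variable than that, at the 99.3rd, 97.5th, 87.5th, 87.3rd and 79.0th percentiles of all genes tested. Within the list, wide spread and a large difference did not always go together, since *sod-3* and *hsp-12.6* had nearly the same pooled SD with differences of 0.01 and 0.66. The median absolute log2 difference between 2 arrays of a group was taken over all kept probes, before averaging to genes. It was 0.0999 to 0.149 in pRJ-Fr.5 worms and 0.0860 to 0.126 in control worms, and pRJ-Fr.5 replicates 1 and 3 were the pair farthest apart. Control replicate 3 had fewer probes well above background than the other arrays (27725, against 32814 to 34548) and a negative-control SD of 5.42, against 1.23 to 1.67. It was the highest control array for *icl-1*, *mtl-2*, *hsp-12.3* and *sip-1*. With it left out the log2 fold change of *icl-1* was 0.63, against 0.49 with all arrays. Probes were filtered again on the arrays left, which took in the dim *icl-1* probe that was otherwise not kept. With all arrays and no filter on dim probes, which also takes in that probe, the log2 fold change of *icl-1* was 0.60. The value of 0.63 therefore does not show the effect of leaving out control replicate 3 alone. Without control replicate 3 the groups no longer overlapped for *hsp-12.3* and *sip-1*.

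Some other genes followed the same pattern over the 6 arrays. Likeness was measured as the root mean square difference of log2 levels, each gene centred on its own mean over the 6 arrays. The genes most like *dod-3* were *cyp-34A10* (0.142), *cyp-34A9* (0.145) and *C54F6.5* (0.161), and the first 2 of these are cytochrome P450 genes of 1 subfamily, whose probes may share signal. The genes most like *mtl-1* were *fil-1* (0.130), a fasting-induced lipase gene, *Y6E2A.4* (0.153) and *phat-5* (0.175). *dod-3* and *mtl-1* were 0.347 apart from each other, which ranked *mtl-1* 83rd among the genes nearest to *dod-3* and *dod-3* 42nd among those nearest to *mtl-1*. The genes most like *icl-1* were *F17C11.4* (0.0282), *C41G11.1* (0.0397) and the F-box gene *fbxa-69* (0.0402). Those most like *hsp-12.6* were *C08F11.13* (0.0220), *D1086.5* (0.0523) and *pals-32* (0.0544). None of the 3 genes nearest to any of the 8 was itself one of the 8.

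The other genes that DAF-16 is known to raise were taken as a list without the 8 genes, and 30 of its 39 genes were tested. Of these, 3 rose and 4 fell by limma, beside 9.88% of all genes higher and 19.1% lower. By the methods' t-test with adjustment 0 rose and 1 fell, beside 1096 of all 16057 genes higher and 2283 lower. At an unadjusted p under 0.05, 9 were higher and 5 lower with pRJ-Fr.5, beside 6924 of all 16057 genes in either direction. The median log2 fold change was 0.11. *hil-1*, a linker histone gene, rose by 0.97 (SE 0.29, limma adjusted p = 0.046), with levels of -0.21, 0.73 and 0.97 on the pRJ-Fr.5 arrays against -0.33, -0.58 and -0.49 on the control arrays. *spp-1*, which encodes a saposin-like antimicrobial protein, rose by 0.50 (limma adjusted p = 0.038), and *tps-1*, a trehalose synthesis gene, rose by 0.48 (limma adjusted p = 0.045). In all 3, as in *dod-3*, *icl-1* and *hsp-12.6*, pRJ-Fr.5 replicate 1 was the lowest pRJ-Fr.5 array. All 3 calls were lost when any control array, or pRJ-Fr.5 replicate 2 or 3, was left out. *dod-3*, *icl-1* and *hsp-12.6* likewise no longer passed without pRJ-Fr.5 replicate 2 or 3. Nor did *dod-3* and *hsp-12.6* without control replicate 2 or 3, or *icl-1* without control replicate 1 or 2. The catalase genes *ctl-1* and *ctl-2* differed by 0.26 and 0.17 (limma adjusted p = 0.051 and 0.15). Catalase copies are near-identical and their values are uncertain. The lysozyme gene *lys-7* differed by 0.18 (limma adjusted p = 0.10) and *hsp-70* by -0.00117 (limma adjusted p = 0.997). No probe was matched to *sodh-1*.

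The genes that fell in that list included the heat-inducible small heat shock proteins. *hsp-16.1* fell by 0.79 (SE 0.13, limma adjusted p = 0.0054), *hsp-16.41* by 0.62 (limma adjusted p = 0.019) and *hsp-16.48* by 0.58 (limma adjusted p = 0.020). The signals of *hsp-16.41* and *hsp-16.48* were dim. With normexp background correction the log2 fold changes of these 3 genes were -0.61, -0.24 and -0.38, and *hsp-16.41* no longer passed. The level of *hsp-16.1* was -2.97, -3.27 and -3.44 on the pRJ-Fr.5 arrays, against -2.52, -2.28 and -2.51 on the control arrays, and the groups did not overlap. *hsp-16.1* has a near-identical copy, *hsp-16.11*, as *hsp-16.48* has in *hsp-16.49*, and the arrays may not tell the copies apart. *hsp-16.2* was well above background on all 3 pRJ-Fr.5 arrays but on 2 control arrays and was not tested. Among the other small heat shock proteins as a list, which holds these genes too, 8 of 11 were tested. By limma 4 fell, beside 19.1% of all genes, with *hsp-17* falling by 0.61 (limma adjusted p = 0.013), and the median was -0.37. None rose, at an unadjusted p under 0.05 or by the methods' t-test either. The remaining HSP12 genes *hsp-12.1* and *hsp-12.2* differed by 0.01 and -0.15 (limma adjusted p = 0.95 and 0.28). The call for *hsp-16.1* held in all 16 alternatives run, whereas those for *hsp-16.41*, *hsp-16.48* and *hsp-17* held in 10, 10 and 11, with all 3 lost without control replicate 3 and without pRJ-Fr.5 replicate 2.

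**Figure D5:**
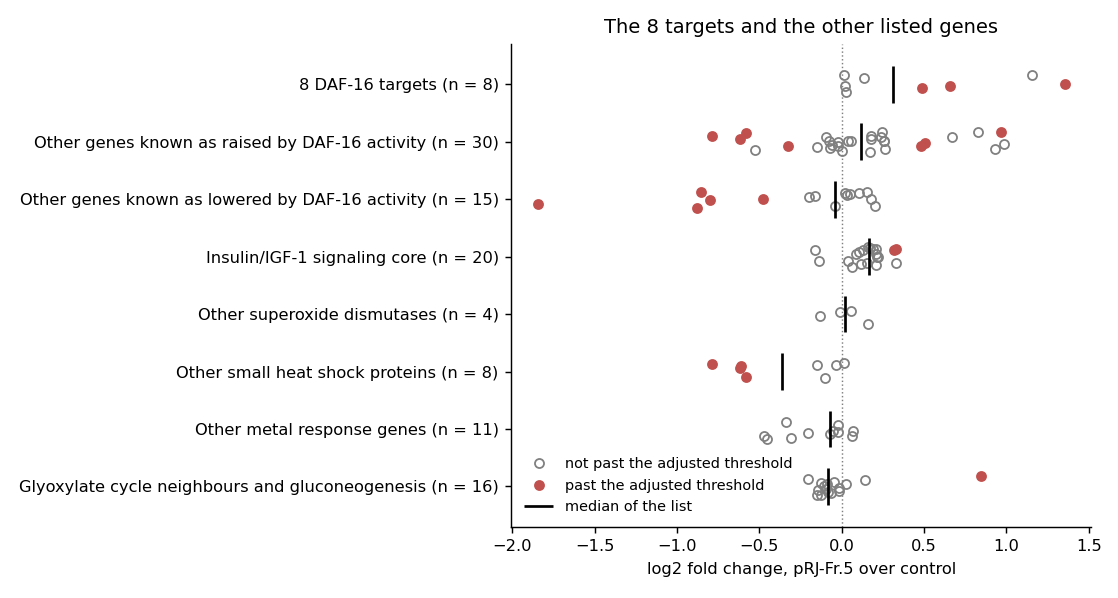
Log2 fold change, pRJ-Fr.5 over control (horizontal axis), of the 8 genes and of the other listed genes that were tested, with filled red points past the adjusted threshold of the limma fit across all genes and a bar at the median of each list. The medians are 0.31 for the 8 genes, 0.11 and -0.04 for other genes raised and lowered by DAF-16, and -0.37 for other small heat shock proteins. Some genes stand in more than 1 list.

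Of the genes that DAF-16 is known to lower, 15 of 18 were tested, with a median of -0.04. By limma none rose and 5 fell, beside 9.88% of all genes higher and 19.1% lower. At an unadjusted p under 0.05, 2 were higher and 5 lower with pRJ-Fr.5, beside 6924 of all 16057 genes in either direction. By the methods' t-test with adjustment 0 were higher and 2 lower, beside 1096 of all genes higher and 2283 lower. *dao-4* fell by 1.85 (SE 0.24, limma adjusted p = 0.0024), *dod-19* by 0.88 (limma adjusted p = 0.0077) and *fkb-4*, a peptidyl-prolyl isomerase gene, by 0.86 (limma adjusted p = 0.0020). The study picked *fkb-4*, *dao-4* and *dod-19*, and *dod-3* of the 8 genes, from these arrays, so their direction here is not independent evidence. It also reported the same changes of these genes by real-time RT-PCR, which was not part of the data used here. The 5 vitellogenin genes *vit-2* to *vit-6*, which encode yolk proteins, had log2 fold changes from -0.04 to 0.20 and none passed the test.

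The IIS pathway itself was tested through 20 of 23 listed genes, of which 2 rose and none fell by limma, with a median of 0.17. The share called was 10%, beside 29% of all genes. At an unadjusted p under 0.05, 10 were higher and 0 lower with pRJ-Fr.5, beside 6924 of all 16057 genes in either direction. By the methods' t-test with adjustment 2 were higher and 0 lower, beside 1096 of all genes higher and 2283 lower. The kinase gene *pdk-1* rose by 0.33 (SE 0.06, limma adjusted p = 0.0059), with levels of -0.40, -0.37 and -0.37 on the pRJ-Fr.5 arrays against -0.72, -0.75 and -0.66 on the control arrays. The receptor gene *daf-2* rose by 0.32 (SE 0.07, limma adjusted p = 0.021), a call lost without control replicate 2, control replicate 3 or pRJ-Fr.5 replicate 2. *daf-16* itself differed by 0.09 (limma adjusted p = 0.27), with levels of -0.93, -0.86 and -0.94 on the pRJ-Fr.5 arrays against -0.99, -1.03 and -0.98 on the control arrays. The kinase genes *age-1*, *akt-1* and *akt-2* differed by 0.21, 0.19 and 0.21, and *sgk-1* by -0.14. The transcription factor gene *pqm-1* differed by 0.13. None of these 5 passed the limma test.

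Few genes near in function to single members passed the test. All 4 other superoxide dismutase genes were tested and none passed by limma, at an unadjusted p under 0.05 or by the methods' t-test, with log2 fold changes of -0.13 for *sod-1*, -0.01 for *sod-2*, 0.16 for *sod-4* and 0.06 for *sod-5*. Of the other metal response genes 11 of 15 were tested and none passed by limma or the methods' t-test. At an unadjusted p under 0.05, 4 of them were lower with pRJ-Fr.5, beside 6924 of all 16057 genes in either direction. The median of the metal response genes was -0.07, and *cdr-1*, a cadmium-responsive gene, differed by -0.31 (limma adjusted p = 0.075). Of the genes around *icl-1* in the glyoxylate cycle and gluconeogenesis all 16 were tested. *acs-2*, an acyl-CoA synthetase gene of fat oxidation, rose by 0.85 (SE 0.22, limma adjusted p = 0.028), a call lost without any 1 control array or pRJ-Fr.5 replicate 2. By the methods' t-test with adjustment none of the 16 passed, beside 3379 of all 16057 genes. At an unadjusted p under 0.05 by limma 1 of the 16 was higher and 1 lower with pRJ-Fr.5, beside 6924 of all genes in either direction. Apart from *acs-2*, the other 15 of these genes lay between -0.21 and 0.14, and the median of the 16 was -0.08. Over all lists without the 8 genes, 98 of 118 genes were tested, 6 rose and 10 fell by limma. The share called was 16.3%, beside 29% of all genes.

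Markers of intestine, body wall muscle, neurons, epidermis, germ line, and oocytes and embryos were all measured, and so were 3 of 5 sperm markers. The summed intestine markers, in units of the 75th percentile, were 53.8 to 59.0 on the pRJ-Fr.5 arrays and 51.7 to 57.2 on the control arrays. The 5 intestine markers and the 5 markers of oocytes and embryos had none past the test by limma or the methods' t-test. At an unadjusted p under 0.05, 1 and 2 of them were higher in pRJ-Fr.5 worms, beside 6924 of all 16057 genes in either direction. All 3 measured sperm markers fell by limma, beside 19.1% of all genes lower. Their sums were 20.3 to 23.2 on the pRJ-Fr.5 arrays and 29.2 to 31.2 on the control arrays. Of 5 epidermis markers 1 fell, with sums of 65.5 to 66.6 on the pRJ-Fr.5 arrays and 70.9 to 82.6 on the control arrays. Their part in the values of the 8 genes was not tested.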

How the data were processed

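Per the file headers, the deposited spot intensities were written by Agilent Feature Extraction 10.7.1.1, which subtracted background within each array but normalized nothing between arrays. The deposited series table holds a linear ratio, namely signal over the array's 75th percentile, which was checked here against those intensities. Control and outlier spots were dropped, repeated spots averaged, and values put on a log2 scale relative to the 75th percentile of the array. A probe was kept if every one of the 6 arrays called it positive, significant and well above background (27514 of 43603 probes), and a gene was the mean of its kept probes. Symbols came from RefSeq (WBcel235) through the sequence name for 80.0% of probes, and 20271 genes were matched. Probes without a match were counted under their own identifier, so the genes on the arrays and the genes tested include such identifiers. The array grid uses another build, so no coordinates are given, and probe sequences were not used here.

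The test was limma 3.58.1 (R 4.3.3; lmFit, eBayes, two-sided, no block), with Benjamini-Hochberg adjustment over 16057 genes and a threshold of 0.05. Its p-values measure only the spread between these samples. With 3 arrays a group, an exact permutation test of 1 gene cannot go below 0.1, and none was run. All 8 genes were named, with the 3 genes most like each. From each list, up to 3 called genes a direction with the largest change and a fixed set were named, of which 1 gene is not reported here. Members and lists were chosen with earlier results of these data known. The number of arrays limits the precision. The alternatives were normexp correction of the median signal, quantile normalization, median centring, other probe filters and summaries, and the series table. Others were blocks, the methods' t-test with the same adjustment, and leaving out each array. The fit was tested on simulated data.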

Additional observations from a re-analysis of the deposited data

How the results depend on the processing

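Of 128 alternative values of the 8 genes, 127 kept their direction or stayed within the spread, and the remaining 1 was *sip-1* at 0.14 with its brightest probe. Past the threshold were *icl-1* in 10, *dod-3* in 9, *hsp-12.6* in 9 and *mtl-1* in 1 of 16 alternatives, the last without pRJ-Fr.5 replicate 1. The members that did not overlap numbered 3 to 5 with an array left out: 5 without control replicate 3 or pRJ-Fr.5 replicate 1, 4 without control replicate 1. Genes past the threshold numbered 4651, against 2657 with no filter on dim probes, and 2741 (without pRJ-Fr.5 replicate 2) to 5406 (without pRJ-Fr.5 replicate 1) with an array left out, with 3050 and 3010 without control replicates 1 and 2. Listed genes past the threshold numbered 16, against 5 with the methods' t-test, 5 with no filter on dim probes, and 5 (without control replicate 3 or pRJ-Fr.5 replicate 2) to 31 (without pRJ-Fr.5 replicate 1), with 8 and 10 without control replicates 1 and 2. Of 480 values of the other 30 named genes, 62 lost the call, 4 gained it and 13 changed sign, none of the last in a called gene. The sign changed for *sod-1* (0.0647) with the brightest probe, for *sod-2* with median centring (0.0219), and for *hsp-70* with quantile normalization (0.0160), median centring (0.0316) and the series table (0.00710). With an array left out, *sod-2* ranged from -0.0626 to 0.0411, *hsp-12.1* from -0.15 to 0.14 and *hsp-70* from -0.22 to 0.16. Same-numbered arrays did not deviate together (r = -0.22, 0.06 and -0.01), so the numbers were not taken to pair the samples, although both arrays numbered 3 also shared a slide and scan. The replicate block gave 3189 genes and 13 listed genes, with *icl-1* past the threshold and *dod-3* and *hsp-12.6* not, and the slide as a block 4389 and 15.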
